A study of Gallus gallus with 24 samples.

Results

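The motor proteins of the cytoskeleton and the tubulins that form microtubules were followed in cultured retinal pigment epithelium (RPE), the pigmented cell layer behind the retina, taken from chick embryos. Members were the genes whose array probe sets carry 1 gene symbol that starts with KIF, DYNC, DYNL, MYO, MYH, MYL, TUBA, TUBB or TUBG and goes on as family members do. There were 101 such genes of 13009 genes with a single symbol, covered by 233 of 38439 probe sets. The probe set with the highest mean log2 signal over all arrays stood for each gene. By role, the members were 23 unconventional myosins, 21 transport kinesins, 13 mitotic kinesins, 13 striated muscle myosins, 12 cytoplasmic dynein subunits, 12 tubulins, 6 genes of nonmuscle and smooth muscle myosin II and KIF1BP, which encodes a kinesin binding protein. The transport group took in every kinesin not counted as mitotic. It therefore also holds kinesins with other roles, among them KIF2A and KIF7, whose roles given below are not transport.

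RPE from White Leghorn embryos at embryonic day 14 (E14) or embryonic day 7 (E7) was grown on filters until quiescent, with pituitary extract in the basal chamber of every culture. At each age the apical and basal media gave 4 groups: rcSF3, which is the serum-free medium SF3 conditioned by E14 neural retinas, rcSF3 with serum in the basal chamber, SF3 with serum, and SF3 alone. Each of the 8 groups had 3 arrays, which the methods describe as biological repeats, each of RNA pooled from several filters plated on one day. The cultures hold RPE without a retina, and the conditioned medium brings what retinas released into it. The code CM-SER-SER in the labels was taken to mean rcSF3 with serum, since every other medium had a code of its own. The paper states that all arrays used the same lot of serum, and that lots later varied in their effects on gene expression. The serum results here are those of that lot.

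Kinesins carry cargo along microtubules, mostly toward their plus ends, and dynein carries it toward their minus ends. In an epithelium the minus ends lie near the apical surface. Myosins pull on actin filaments, where myosin II makes tension in the cell cortex and the unconventional myosins move membranes, organelles and the cores of protrusions. In RPE cells these systems place melanosomes, carry phagosomes and build the apical microvilli, and kinesin and dynein motors of their own serve the primary cilium.

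Of the 101 members, 64 had a mean signal of at least 100 over the 24 arrays and were tested with limma, among 18705 probe sets that passed the same filter. The signal is an intensity in arbitrary units, and a gene was called when its p value, after Benjamini-Hochberg adjustment over all probe sets tested, was under 0.05. The number of arrays limits the precision of every value. As an alternative to the brightest probe set, the mean over all probe sets of a gene was tried, and its value is given beside a result whose call it ended or whose direction it turned. Losses of a call under other settings, such as quantile normalization or no filter, are mostly not given beside the gene. All 12 RPE markers that had a symbol passed the filter, with summed signals from 171000 to 249000 on single arrays. The sums moved with the media. At E14 they were 237000 to 249000 in rcSF3 and 185000 to 208000 in SF3 with serum, against 209000 to 228000 in SF3. At E7 they were 219000 in rcSF3 and 171000 to 184000 in SF3 with serum, against 176000 to 191000 in SF3. The part of this in the results below was not tested. Arrays of the same group correlated at 0.971 to 0.986 over the log2 signals.

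Motor and tubulin genes were called in every comparison of media and of age. In rcSF3 against SF3, 10 of 64 members were called in E14 cultures, 6 higher and 4 lower, where 9.84% of all probe sets tested were called (4.9% higher, 4.95% lower). In E7 cultures 20 were called, 11 higher and 9 lower, beside 27.3% of all probe sets (13.6% higher, 13.6% lower). In SF3 with serum against SF3, 17 members were called in E14 cultures, 11 higher and 6 lower, beside 24.3% of all probe sets (12.1% higher, 12.3% lower), and 22 in E7 cultures, 12 higher and 10 lower, beside 38.8% (17.6% higher, 21.2% lower). In rcSF3 with serum against SF3 with serum, 2 members were called in E14 cultures, 0 higher and 2 lower, beside 2.91% of all probe sets (1.13% higher, 1.78% lower), and 14 in E7 cultures, 8 higher and 6 lower, beside 21.5% (11.4% higher, 10.1% lower). E14 cultures differed from E7 cultures in SF3 in 22 members, 12 higher and 10 lower, beside 36.4% of all probe sets (15.8% higher, 20.6% lower). The members' own shares were 15.6% and 31.2% for rcSF3 (E14, E7), 26.6% and 34.4% for serum, 3.12% and 21.9% for rcSF3 with serum, and 34.4% for age. The members' share lay above that of all probe sets for rcSF3 and for rcSF3 with serum at both ages and for serum at E14, and below it for serum at E7 and for age, and none of these gaps was tested.

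**Figure D1:**
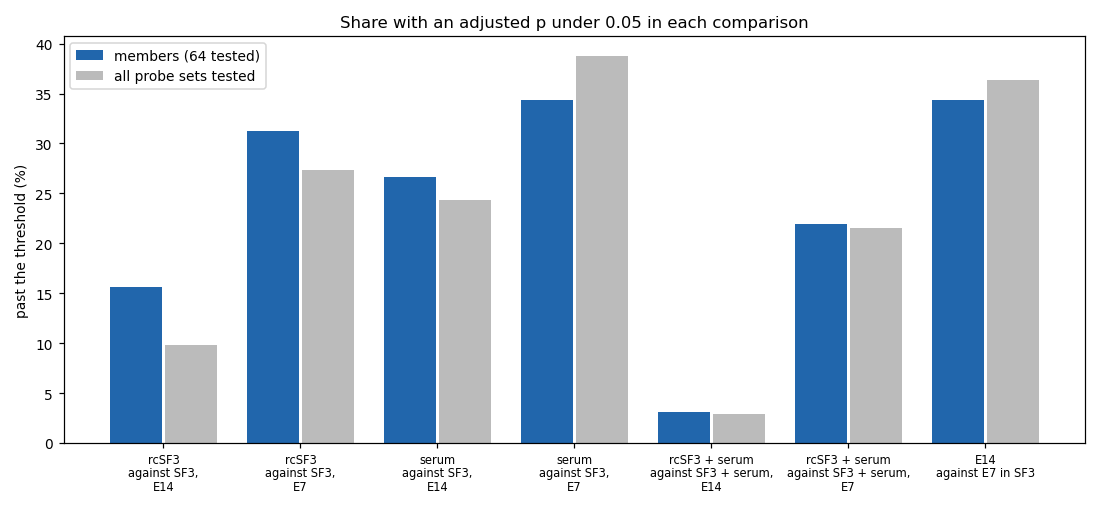
Share of the 64 tested members (blue) and of all probe sets tested (gray) with an adjusted p under 0.05, in percent, for 7 comparisons. The bars are lowest for rcSF3 with serum in E14 cultures (3.12% of members, 2.91% of all) and highest for serum in E7 cultures (34.4%, 38.8%) and for age (34.4%, 36.4%).

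Over the 4 media, an F test called 32 members in E14 cultures (41.1% of all probe sets) and 43 in E7 cultures (61.9% of all probe sets). Among the 16 tested transport kinesins it called 9 at E14 and 14 at E7, and among the 8 tested tubulins 6 and 5. Over the 6 comparisons of media, 22 members were called in none, 12 in 1, 20 in 2, 8 in 3 and 1 each in 4 (MYO3A) and 5 (MYL6). This count was not made over all probe sets, so it cannot be set against their share.

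KIF5C and KIF1A, kinesins best known from neurons, were the transport kinesins with the lowest log2 fold changes in E7 rcSF3 cultures. KIF5C, a heavy chain of kinesin-1 found mainly in neurons, gave signals of 175, 167 and 143 in E14 rcSF3 cultures, against 279, 431 and 416 in E14 SF3 cultures. In E7 rcSF3 cultures it gave 294, 196 and 192, against 899.6, 848 and 773 in E7 SF3 cultures. At both ages every rcSF3 array lay below every SF3 array, and at E7 the gap was wide. The log2 fold change, given with its SE as are all that follow, was -1.20 ± 0.20 (adjusted p = 0.002) at E14 and -1.91 ± 0.19 (adjusted p = 4.2e-06) at E7. With bulk RNA, fewer cells of a type and less RNA per cell cannot be told apart. Both other tested probe sets of KIF5C fell at E7, by 1.87 (adjusted p = 0.00047) and 1.14 (adjusted p = 0.0029) on the log2 scale, while at E14 they gave -1.05 and -0.64 (adjusted p = 0.061 and 0.22).

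KIF1A, a kinesin-3 that carries synaptic vesicle precursors in neurons, gave 181, 212 and 79 in E7 rcSF3 cultures, against 321, 297 and 359.6 in E7 SF3 cultures. The third rcSF3 array lay under the filter level of 100 and the SF3 arrays stood well above, with no overlap. The log2 fold change was -1.17 ± 0.28 (adjusted p = 0.0058), and it was -1.05 with signals under 100 raised to 100. A second probe set of KIF1A fell by 1.33 (adjusted p = 0.0052). In E14 cultures KIF1A gave 149, 109 and 152 in rcSF3, against 184, 121 and 200 in SF3, and the groups overlapped (log2 fold change -0.28 ± 0.25, adjusted p = 0.53). Photoreceptor markers moved beside these kinesins: 2 of 5 tested, GNAT2 and GUCA1A, were lower in E7 rcSF3 cultures, and the summed signal of the 9 measured was 1290 to 1390 in E7 rcSF3 cultures, against 3680 to 4570 in E7 SF3 cultures. At E14 that sum was 1450 to 1970 in rcSF3, against 1880 to 3870 in SF3, and of the 5 tested PRPH2 was lower and ARR3 higher. Of 3 neuronal markers tested at E7, ELAVL4 was lower and SNAP25 higher. The summed signal of the 8 neuronal markers measured was 3120 to 4410 in E7 rcSF3 cultures, against 2250 to 3160 in E7 SF3 cultures. The part of photoreceptor and neuronal cells in the fall of the kinesins was not tested.

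**Figure D2:**
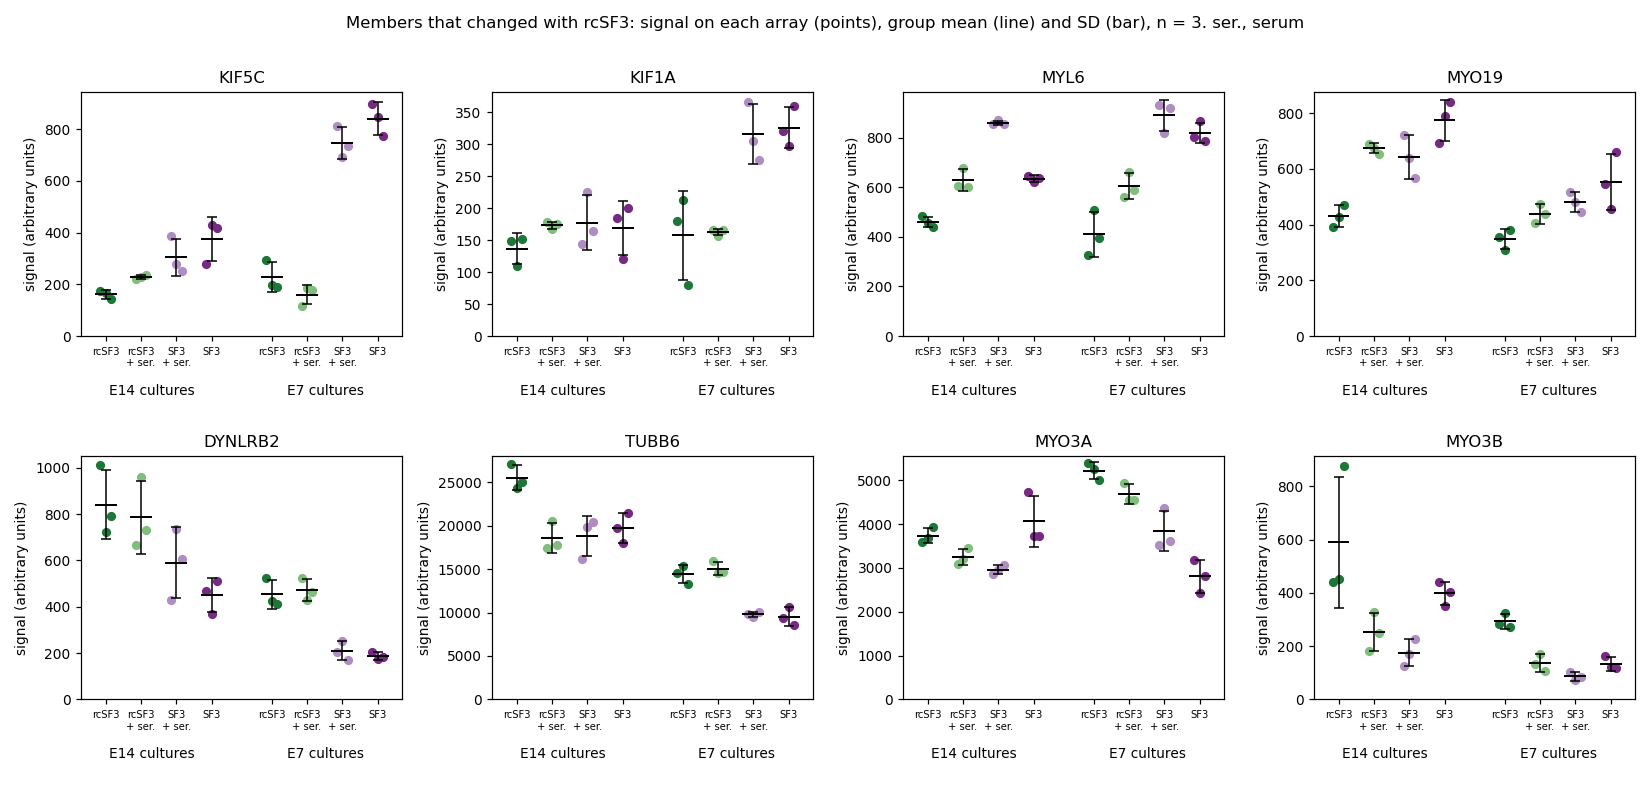
Signal (arbitrary units, linear axis from 0) of 8 members on each array, for the 4 media of E14 cultures (left) and of E7 cultures (right); points are arrays, lines are group means and bars are SD, n = 3. KIF5C lies at 117 to 294 in both E7 groups with rcSF3 and at 693 to 899.6 in both E7 groups without it, and DYNLRB2 and TUBB6 show the opposite order.

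The other transport kinesins had smaller log2 fold changes in rcSF3 than KIF5C at E14 and than KIF5C and KIF1A at E7. KIF5B, the widely expressed kinesin-1 heavy chain, gave 891, 819 and 957 in E14 rcSF3 cultures, against 648, 599.9 and 717 in E14 SF3 cultures. All 3 rcSF3 arrays were higher, with a log2 fold change of 0.44 ± 0.12 (adjusted p = 0.035), and the call was lost without any one of SF3 replicates 1 or 2 or rcSF3 replicates 1 or 3 (adjusted p = 0.087 to 0.13). The mean of its probe sets gave 0.29 (adjusted p = 0.14). At E7 the log2 fold change of KIF5B was 0.15 ± 0.10 (adjusted p = 0.3). KIF9, a motor of motile cilia and flagella, rose in E7 rcSF3 cultures by 0.59 ± 0.14 (adjusted p = 0.0061). KIF21A, which restrains microtubule growth in mouse axons, fell at E7 by 0.30 ± 0.07 (adjusted p = 0.0055), and KIF1B, a kinesin-3 of mitochondria and vesicles, was 0.25 ± 0.07 (adjusted p = 0.018) there. The call of KIF1B was lost without any one of SF3 replicates 1 or 3 or rcSF3 replicates 1 or 2 (adjusted p = 0.051 to 0.068), and the mean of its probe sets gave -0.062 (adjusted p = 0.91), of the opposite sign. KIF3A, a kinesin-2 motor that builds cilia, gave 0.02 ± 0.14 (adjusted p = 0.94) at E14 and -0.05 ± 0.16 (adjusted p = 0.87) at E7. KIF3B was not called in rcSF3 at either age. The paper's main text names Kif3 among the cytoskeletal genes that rcSF3 raised most at E7. It does not state there which KIF3 gene was meant and refers to an appendix for gene descriptions. Its figure gives ratios to native E14 RPE. Whether it read the same probe sets as here was not checked, so the results are not set against each other.

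In E14 rcSF3 cultures KIF1B gave 0.20 ± 0.07 (adjusted p = 0.087) and KIF9 0.39 ± 0.13 (adjusted p = 0.081). Same-numbered rcSF3 and SF3 arrays deviated together, and a block of the replicate number within each serum state, chosen after the data were seen, is given where it changed a call. With it both were called, with 0.20 ± 0.06 (adjusted p = 0.045) for KIF1B and 0.39 ± 0.11 (adjusted p = 0.035) for KIF9.

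Only 5 of the 13 mitotic kinesins passed the filter. KIF15, a motor of the spindle, was the only mitotic kinesin called in rcSF3 at either age. It gave 330.4, 334 and 415 in E7 rcSF3 cultures, against 179, 141 and 249 in E7 SF3 cultures. The arrays of the 2 groups did not overlap (log2 fold change 0.96 ± 0.25, adjusted p = 0.011), and the call was lost without SF3 replicate 2 (adjusted p = 0.057). It was also lost in the unmoderated analysis of variance (adjusted p = 0.054) and in 1 model of all 24 arrays (adjusted p = 0.071). KIF20A, a motor of cytokinesis, gave 0.49 ± 0.23 (adjusted p = 0.15) at E7. KIF11 and KIF23, motors of the spindle and of the cleavage furrow, stayed under the filter, with group means from 57.1 to 167 for KIF11 and from 53.9 to 105 for KIF23. Both had their highest group mean in E7 SF3 cultures. Of 14 cell division markers tested, CDK1, PLK1, ANLN, TPX2, MAD2L1 and CCNA2 were lower in E7 rcSF3 cultures and HMGB2 higher.

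Of the 11 dynein subunits tested, 2 were higher and 0 lower in rcSF3 at each age, beside 4.9% higher at E14 and 13.6% at E7 over all probe sets, and DYNLRB2 had the highest log2 fold change at both ages. This light chain of the roadblock family gave 1010, 723 and 791 in E14 rcSF3 cultures, against 467, 371 and 513 in E14 SF3 cultures, and 523, 424 and 412 in E7 rcSF3 cultures, against 206, 175 and 184 in E7 SF3 cultures. All rcSF3 arrays lay above all SF3 arrays of their age. The log2 fold change was 0.90 ± 0.20 (adjusted p = 0.01) at E14 and 1.26 ± 0.17 (adjusted p = 5.1e-05) at E7. At E14 the call was lost without either SF3 replicate 2 or rcSF3 replicate 1 (adjusted p = 0.05 to 0.054).

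DYNC1I2, an intermediate chain that links dynein to its adaptors, gave 2739, 2797 and 3277 in E14 rcSF3 cultures, against 2399, 2279 and 2368 in E14 SF3 cultures. The groups did not overlap (log2 fold change 0.32 ± 0.10, adjusted p = 0.047), but the call was lost without any one of SF3 replicates 1, 2 or 3, SF3 with serum replicate 2, rcSF3 with serum replicates 1, 2 or 3 or rcSF3 replicates 1, 2 or 3 (adjusted p = 0.054 to 0.18). It was also lost with the replicate number as a block over all 4 media (adjusted p = 0.052), and the mean of its probe sets gave -0.20 (adjusted p = 0.52), of the opposite sign. At E7 DYNC1I2 gave 0.24 ± 0.09 (adjusted p = 0.06) without a block, and 0.24 ± 0.07 (adjusted p = 0.023) with same-numbered arrays as a block. DYNLL2, an LC8 light chain shared by dynein and myosin V, rose in E7 rcSF3 cultures by 0.30 ± 0.09 (adjusted p = 0.02), a call lost without any one of SF3 replicates 2 or 3 or rcSF3 replicate 2 (adjusted p = 0.06 to 0.092). The heavy chain DYNC1H1, the motor subunit of cytoplasmic dynein, gave 0.16 ± 0.11 (adjusted p = 0.39) at E14 and -0.18 ± 0.12 (adjusted p = 0.28) at E7.

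**Figure D3:**
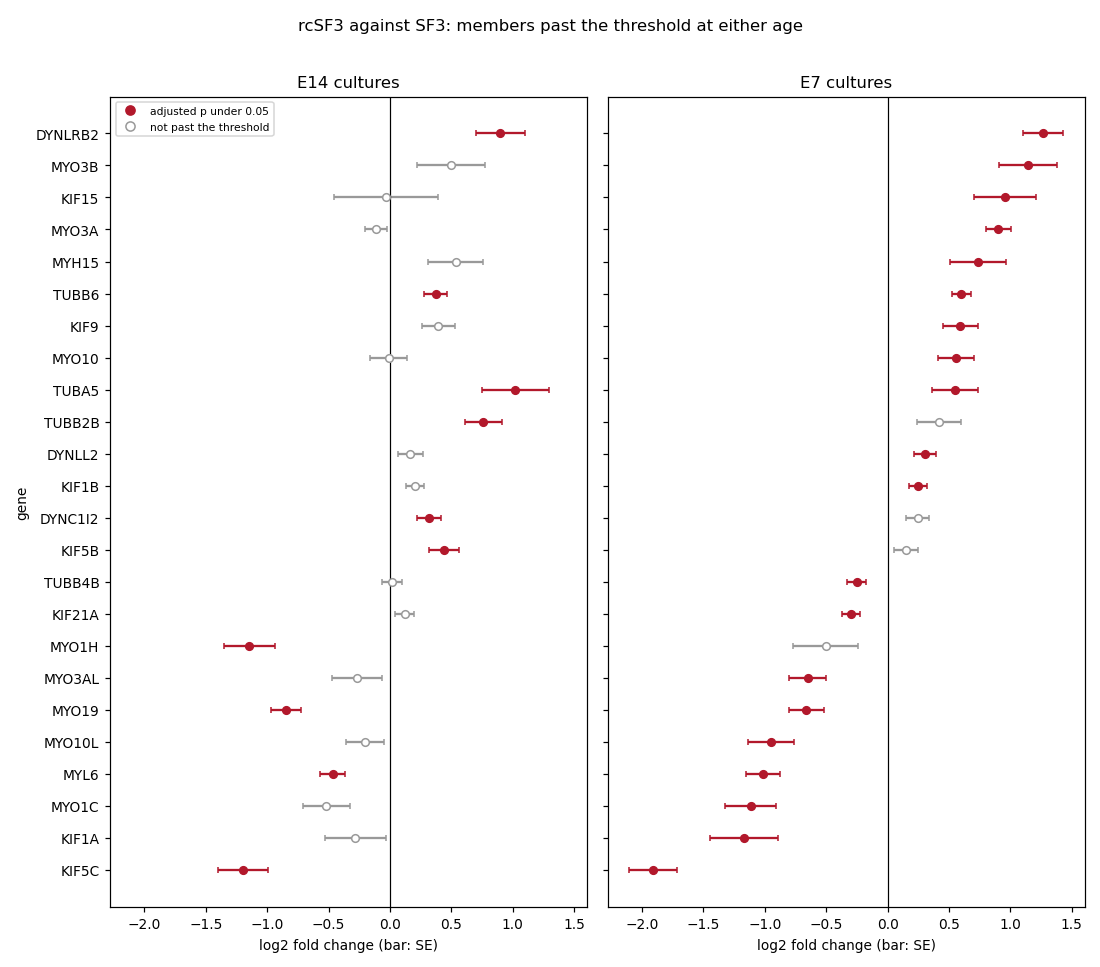
Log2 fold change of rcSF3 against SF3 (bar, SE) in E14 cultures (left) and E7 cultures (right) for the 24 members called at either age, in the order of the E7 values; filled red points have an adjusted p under 0.05. KIF5C lies lowest at E7 (-1.91) and DYNLRB2 highest (1.26).

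Of 16 unconventional myosins tested in rcSF3, 0 were higher and 2 lower at E14, and 3 were higher and 4 lower at E7 (12.5% and 43.8% called, beside 9.84% and 27.3% of all probe sets). MYO3A and MYO3B, class III myosins that carry cargo to the tips of actin protrusions in photoreceptors and hair cells, rose together at E7. MYO3A gave 5388, 5268 and 5013 in E7 rcSF3 cultures, against 3179, 2434 and 2812 in E7 SF3 cultures. The groups lay far apart, with a log2 fold change of 0.90 ± 0.10 (adjusted p = 9.9e-06), and a second probe set gave 0.95 (adjusted p = 3.1e-06). MYO3B gave 283, 325 and 273 in E7 rcSF3 cultures, against 164, 121 and 118 in E7 SF3 cultures, again without overlap (1.14 ± 0.24, adjusted p = 0.0021). At E14 neither was called: MYO3A gave -0.11 ± 0.09 (adjusted p = 0.5) and MYO3B 0.50 ± 0.28 (adjusted p = 0.29).

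MYO19, a motor attached to mitochondria, fell in rcSF3 at both ages. It gave 392, 429 and 472 in E14 rcSF3 cultures, against 695, 788 and 840.3 in E14 SF3 cultures, and 355, 308 and 379 in E7 rcSF3 cultures, against 545, 458 and 659.8 in E7 SF3 cultures. The arrays did not overlap at either age. The log2 fold change was -0.85 ± 0.12 (adjusted p = 0.00071) at E14 and -0.66 ± 0.14 (adjusted p = 0.003) at E7. A second probe set fell by 0.90 at E14 (adjusted p = 0.0053) and gave -0.48 at E7 (adjusted p = 0.26).

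MYO1C and MYO1H are class I myosins, which tie membranes to actin. MYO1C gave 408, 226 and 404 in E7 rcSF3 cultures, against 874, 697 and 622 in E7 SF3 cultures, and every rcSF3 array was lower (-1.11 ± 0.21, adjusted p = 0.001). A second probe set of MYO1C gave -0.37 (adjusted p = 0.15). At E14 MYO1C gave -0.52 ± 0.19 (adjusted p = 0.1) without a block and -0.52 ± 0.16 (adjusted p = 0.042) with same-numbered arrays as a block. MYO1H gave 216, 341 and 299 in E14 rcSF3 cultures, against 625, 534 and 711 in E14 SF3 cultures. The groups were well apart (-1.15 ± 0.21, adjusted p = 0.0032), and its other probe sets fell by 1.51 (adjusted p = 0.00015) and 1.34 (adjusted p = 0.00084). In E7 cultures MYO1H gave 129.5, 90.11 and 106 in rcSF3, against 184, 106 and 181 in SF3, with overlapping arrays (-0.51 ± 0.27, adjusted p = 0.18).

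MYO10, which builds filopodia, rose in E7 rcSF3 cultures by 0.56 ± 0.14 (adjusted p = 0.0096), with 384, 383 and 385 in E7 rcSF3 cultures, against 294, 258 and 234 in E7 SF3 cultures. The mean of its probe sets gave 0.34 (adjusted p = 0.28). MYO10L and MYO3AL, whose symbols mark them as like MYO10 and MYO3A, fell at E7 by 0.95 ± 0.19 (adjusted p = 0.0016) and 0.65 ± 0.15 (adjusted p = 0.0053). MYO7A, MYO5A and MYO6 were not called in rcSF3 at either age. MYO7A, which holds melanosomes and phagosomes in the apical RPE of mice, gave 0.03 ± 0.11 (adjusted p = 0.92) at E14 and -0.17 ± 0.10 (adjusted p = 0.25) at E7. MYO5A, the melanosome motor of mouse melanocytes, gave 0.15 ± 0.11 (adjusted p = 0.43) and 0.04 ± 0.12 (adjusted p = 0.83), and MYO6, the myosin that walks to the minus end of actin, gave 0.30 ± 0.16 (adjusted p = 0.28) and 0.05 ± 0.16 (adjusted p = 0.85).

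In myosin II, the essential light chain MYL6 fell, and the heavy chains MYH9 and MYH10 were not called without a block. MYL6 gave 482, 455 and 441 in E14 rcSF3 cultures, against 645, 619.7 and 638 in E14 SF3 cultures, and 328, 507 and 396 in E7 rcSF3 cultures, against 802, 865 and 786 in E7 SF3 cultures. All rcSF3 arrays lay below all SF3 arrays of their age, by 0.47 ± 0.10 (adjusted p = 0.0085) at E14 and 1.02 ± 0.14 (adjusted p = 7.9e-05) at E7. The heavy chain MYH9 gave -0.33 ± 0.13 (adjusted p = 0.12) at E14 and -0.26 ± 0.12 (adjusted p = 0.12) at E7. With same-numbered arrays as a block MYH9 was called at E14 (-0.33 ± 0.09, adjusted p = 0.024). MYH10 gave 0.05 ± 0.07 (adjusted p = 0.68) and 0.13 ± 0.07 (adjusted p = 0.18), and the regulatory light chain MYL9 gave -0.01 ± 0.07 (adjusted p = 0.96) and -0.001 ± 0.09 (adjusted p = 1). MYL12A, another regulatory light chain, gave 0.03 ± 0.07 (adjusted p = 0.81) and -0.08 ± 0.08 (adjusted p = 0.52). MYH15, of the striated muscle group, rose at E7 by 0.74 ± 0.23 (adjusted p = 0.027), a call lost without any one of SF3 replicates 1 or 2 or rcSF3 replicates 1 or 3 (adjusted p = 0.067 to 0.11).

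Of the 8 tubulins tested in rcSF3, 3 were higher and 0 lower at E14, beside 4.9% higher and 4.95% lower of all probe sets, and 2 were higher and 1 lower at E7, beside 13.6% each way. All of these calls except TUBB2B at E14 and TUBB6 at E7 were lost without some single array. By unadjusted p under 0.05 the number of lower tubulins at E14 was 0. The β-tubulin TUBB6 gave 27140, 24380 and 25090 in E14 rcSF3 cultures, against 19740, 17990 and 21500 in E14 SF3 cultures, and 14590, 15410 and 13320 in E7 rcSF3 cultures, against 9357, 10700 and 8577 in E7 SF3 cultures. The groups did not overlap at either age, with 0.37 ± 0.09 (adjusted p = 0.02) at E14 and 0.60 ± 0.08 (adjusted p = 5.4e-05) at E7. At E14 the call was lost without any one of SF3 replicates 1 or 2 or rcSF3 replicate 1 (adjusted p = 0.056 to 0.1). The β-tubulin TUBB2B gave 1307, 853 and 996 in E14 rcSF3 cultures, against 687, 514 and 647 in E14 SF3 cultures, with no overlap (0.76 ± 0.15, adjusted p = 0.0051). At E7 it gave 0.42 ± 0.18 (adjusted p = 0.1).

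The α-tubulin TUBA5 rose in rcSF3 by 1.02 ± 0.27 (adjusted p = 0.028) at E14, where the call was lost without any one of SF3 replicate 2 or rcSF3 replicates 2 or 3 (adjusted p = 0.06 to 0.1), and by 0.55 ± 0.19 (adjusted p = 0.041) at E7, where it was lost without any one of SF3 replicates 1 or 2, rcSF3 with serum replicates 1 or 2 or rcSF3 replicates 1, 2 or 3 (adjusted p = 0.053 to 0.14). TUBB4B, the one tubulin lower at E7, changed by -0.25 ± 0.08 (adjusted p = 0.026), a call lost without any one of SF3 replicates 2 or 3 or rcSF3 replicates 1 or 3 (adjusted p = 0.064 to 0.11). TUBA1A, an abundant α-tubulin, gave 0.22 ± 0.10 (adjusted p = 0.18) at E14 and 0.27 ± 0.10 (adjusted p = 0.071) at E7, and 0.22 ± 0.06 (adjusted p = 0.023) at E14 with same-numbered arrays as a block. Fibroblast markers moved beside these changes, since 3 of 7 tested were lower in rcSF3 at E14 and 4 of 7 at E7, with COL3A1 and COL1A2 among them. Their summed signal was 2520 to 3940 in E14 rcSF3 cultures, against 5640 to 7380 in E14 SF3 cultures, and 1840 to 3850 in E7 rcSF3 cultures, against 5650 to 9250 in E7 SF3 cultures. Blood marker sums were 2660 to 3380 in E14 rcSF3 cultures, against 3030 to 3810 in SF3, and 3510 to 4270 at E7, against 5900 to 7360. Glial marker sums were 38300 to 47100 in E14 rcSF3 cultures, against 37900 to 41800 in SF3, and 35400 to 41800 at E7, against 34600 to 35100. The part of these markers in the results was not tested.

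Called with rcSF3 at both ages were 6 members. DYNLRB2, KIF5C, MYL6, MYO19, TUBA5 and TUBB6 each moved in the same direction at both ages, which is 60% of the 10 members called at E14 and 30% of the 20 called at E7. Over all probe sets tested these shares were 64.2% and 23.2%.

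Among the tubulins, TUBA1A had the highest log2 fold change with serum at both ages. It gave 10780, 10230 and 11980 in E14 cultures with serum, against 6494, 5388 and 5719 in E14 SF3 cultures, and 9767, 10060 and 10620 in E7 cultures with serum, against 5807, 5921 and 4609 in E7 SF3 cultures. Every array with serum lay far above every array without. The log2 fold change was 0.91 ± 0.10 (adjusted p = 2.3e-05) at E14 and 0.91 ± 0.10 (adjusted p = 1.7e-05) at E7, and a second probe set rose by 1.28 and 1.35. The name of the probe set used for TUBA1A ends in x_at, a mark of probes that other transcripts may share. The part of other transcripts in its signal was not tested. The β-tubulins TUBB2A and TUBB2B rose with serum at E14, by 0.82 ± 0.19 (adjusted p = 0.006) and 0.71 ± 0.15 (adjusted p = 0.0032). TUBA5 rose at E14 by 0.81 ± 0.27 (adjusted p = 0.041), a call lost without any one of SF3 replicates 1 or 2, SF3 with serum replicates 1, 2 or 3, rcSF3 with serum replicate 3 or rcSF3 replicate 2 (adjusted p = 0.051 to 0.17). At E7 these 3 gave 0.50 ± 0.22 (adjusted p = 0.085), 0.44 ± 0.18 (adjusted p = 0.068) and 0.28 ± 0.19 (adjusted p = 0.26). TUBG1, the γ-tubulin that nucleates microtubules, rose at E7 by 0.53 ± 0.15 (adjusted p = 0.012), a call lost without either SF3 replicate 1 or SF3 with serum replicate 2 (adjusted p = 0.059 to 0.06). The mean of the TUBG1 probe sets gave -0.47 (adjusted p = 0.54), of the opposite sign. TUBB6 gave -0.07 ± 0.09 (adjusted p = 0.61) at E14 and 0.04 ± 0.08 (adjusted p = 0.69) at E7.

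**Figure D4:**
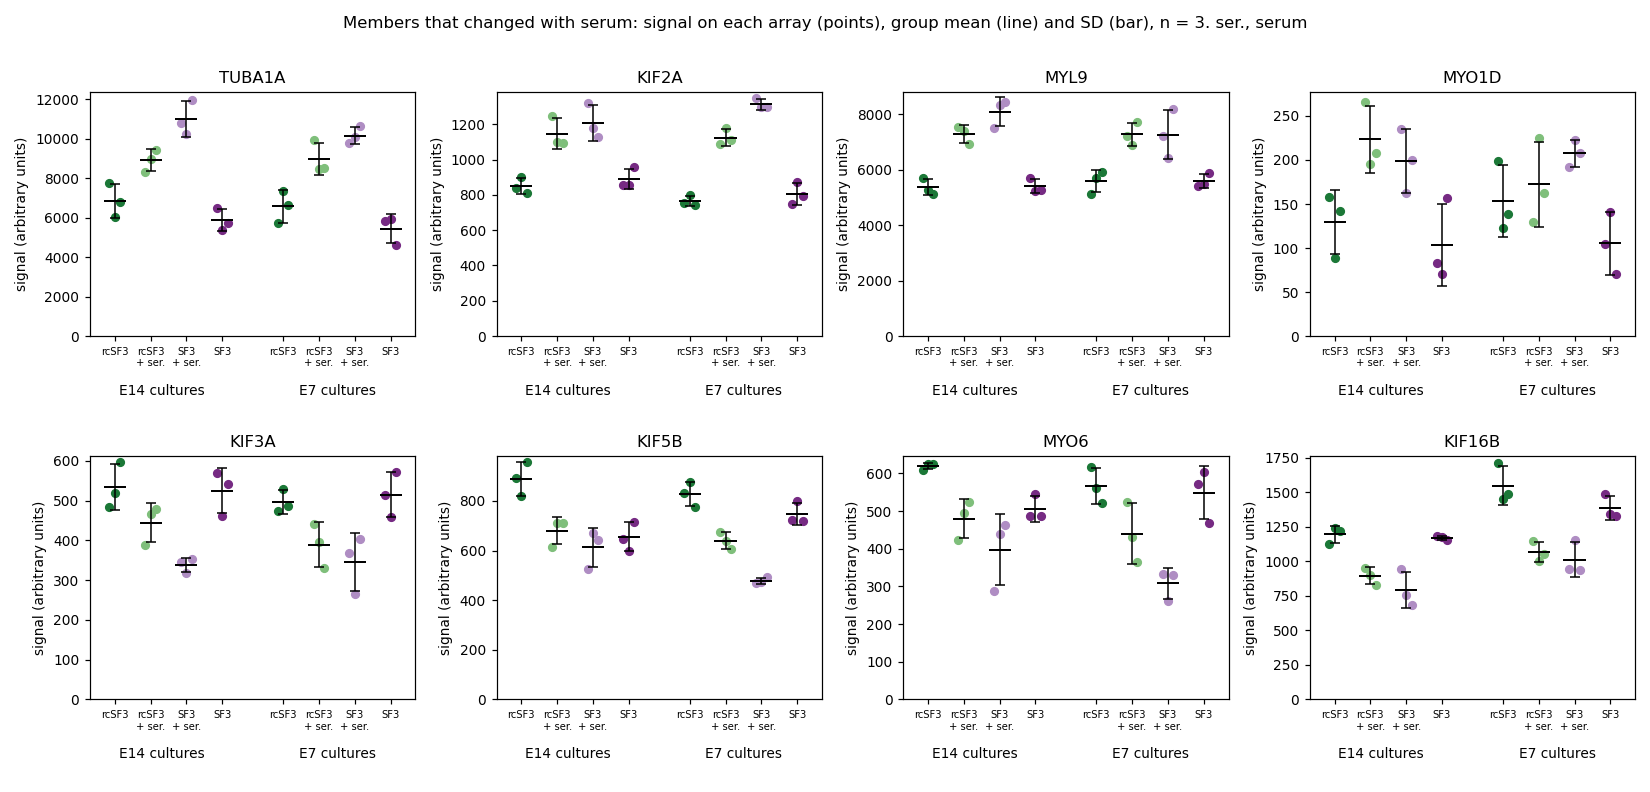
Signal (arbitrary units, linear axis from 0) of 8 members on each array, for the 4 media of E14 cultures (left) and of E7 cultures (right); points are arrays, lines are group means and bars are SD, n = 3. TUBA1A lies at 8334 to 11980 on every array with serum and at 4609 to 7753 on every array without it, and KIF16B shows the opposite order within each age.

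Of 16 transport kinesins tested with serum, 3 were higher and 3 lower at E14, and 3 higher and 5 lower at E7 (37.5% and 50% called, beside 24.3% and 38.8% of all probe sets). KIF3A gave 344, 319 and 353 in E14 cultures with serum, against 570.1, 461 and 542 in E14 SF3 cultures, and 369, 264 and 403 in E7 cultures with serum, against 514, 458 and 572 in E7 SF3 cultures. All arrays with serum were lower, by 0.63 ± 0.14 (adjusted p = 0.0039) at E14 and 0.59 ± 0.16 (adjusted p = 0.01) at E7. The mean of its probe sets gave -0.58 (adjusted p = 0.057) at E14. The E7 call was lost without SF3 with serum replicate 2 (adjusted p = 0.054), and of its other probe sets one fell there by 1.24 (adjusted p = 0.00052) and one gave -0.62 (adjusted p = 0.081). Its partner in kinesin-2, KIF3B, gave -0.15 ± 0.18 (adjusted p = 0.6) at E14 and -0.59 ± 0.18 (adjusted p = 0.019) at E7, where the call was lost without either SF3 replicate 1 or SF3 with serum replicate 3 (adjusted p = 0.055 to 0.077).

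KIF16B, which moves early endosomes, gave 940.3, 752 and 684 in E14 cultures with serum, against 1182, 1175 and 1154 in E14 SF3 cultures, and 943, 1156 and 935 in E7 cultures with serum, against 1484, 1340 and 1330 in E7 SF3 cultures. The groups did not overlap at either age (-0.58 ± 0.11, adjusted p = 0.0022, at E14 and -0.46 ± 0.11, adjusted p = 0.0033, at E7). With the mean of its probe sets both calls were lost, at -0.42 (adjusted p = 0.18) at E14 and, of the opposite sign, 0.33 (adjusted p = 0.37) at E7. KIF6, a motor of motile cilia, fell by 0.77 ± 0.25 (adjusted p = 0.037) at E14, a call lost without any one of SF3 replicates 1 or 2 or SF3 with serum replicates 2 or 3 (adjusted p = 0.096 to 0.12), and by 0.72 ± 0.25 (adjusted p = 0.033) at E7, a call lost without any one of SF3 replicates 1 or 3 or SF3 with serum replicates 1 or 3 (adjusted p = 0.064 to 0.12). KIF6 lay under 100 on 3 of these 6 arrays with serum.

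KIF5B gave 468, 472 and 492 in E7 cultures with serum, against 724, 799 and 719 in E7 SF3 cultures, and all arrays with serum were lower (-0.65 ± 0.10, adjusted p = 0.00015). Another probe set fell by 0.79 (adjusted p = 0.0034) and the other gave -0.20 (adjusted p = 0.28). In E14 cultures KIF5B gave 524, 670 and 643 with serum, against 648, 599.9 and 717 in SF3, with overlapping arrays (-0.10 ± 0.12, adjusted p = 0.59). KIF5C gave -0.29 ± 0.20 (adjusted p = 0.31) at E14 and -0.17 ± 0.19 (adjusted p = 0.51) at E7.

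KIF2A, a kinesin that takes microtubule ends apart, gave 1318, 1178 and 1125 in E14 cultures with serum, against 855, 858 and 955 in E14 SF3 cultures, and 1350, 1295 and 1297 in E7 cultures with serum, against 749.8, 871 and 794 in E7 SF3 cultures. Serum arrays were higher throughout (0.44 ± 0.10, adjusted p = 0.0055, at E14 and 0.71 ± 0.09, adjusted p = 2.8e-05, at E7), and the mean of its probe sets at E7 gave 0.54 (adjusted p = 0.12). KIFC2, which moves toward minus ends, rose at E7 by 0.77 ± 0.15 (adjusted p = 0.00091) and gave 0.28 ± 0.13 (adjusted p = 0.14) at E14. KIF4B, a mitotic kinesin of chromosome arms, rose at E14 by 0.84 ± 0.27 (adjusted p = 0.037) with overlapping arrays, a call lost without any one of SF3 replicates 1 or 2 or SF3 with serum replicates 2 or 3 (adjusted p = 0.078 to 0.16). KIF20A gave 0.34 ± 0.32 (adjusted p = 0.46) and 0.25 ± 0.23 (adjusted p = 0.43). KIF1B rose with serum by 0.21 ± 0.07 (adjusted p = 0.045) at E14, a call lost without any one of SF3 replicates 1, 2 or 3, SF3 with serum replicates 1, 2 or 3, rcSF3 with serum replicate 3 or rcSF3 replicates 1, 2 or 3 (adjusted p = 0.051 to 0.14) and with the replicate number as a block over all 4 media (adjusted p = 0.059). At E7 KIF1B rose by 0.27 ± 0.07 (adjusted p = 0.0091), where another of its probe sets fell by 0.60. The mean of its probe sets gave 0.27 (adjusted p = 0.48) at E14 and, of the opposite sign, -0.46 (adjusted p = 0.26) at E7. KIF21A rose at E14 by 0.30 ± 0.08 (adjusted p = 0.012), where the mean of its probe sets gave 0.06 (adjusted p = 0.64), and gave -0.09 ± 0.07 (adjusted p = 0.31) at E7.

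**Figure D5:**
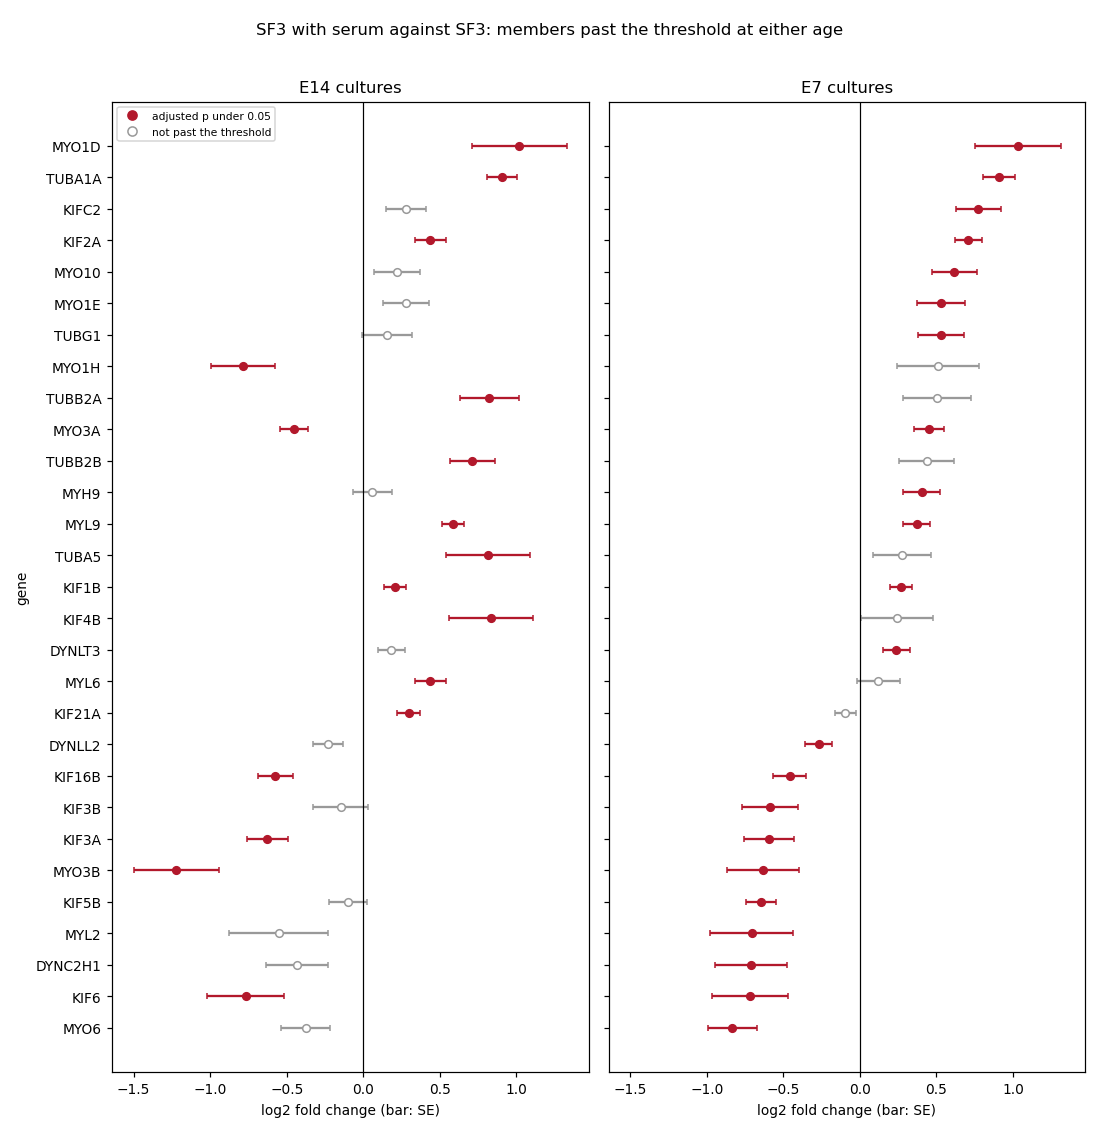
Log2 fold change of SF3 with serum against SF3 (bar, SE) in E14 cultures (left) and E7 cultures (right) for the 29 members called at either age, in the order of the E7 values; filled red points have an adjusted p under 0.05. TUBA1A and MYO1D lie near 1 at both ages, and MYO3A lies above 0 at E7 (0.45) and below it at E14 (-0.45).

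Of the regulatory light chains of myosin II, MYL9 rose with serum and MYL12A was not called. MYL9 gave 7502, 8357 and 8442 in E14 cultures with serum, against 5694, 5231 and 5278 in E14 SF3 cultures, and 7212, 6409 and 8182 in E7 cultures with serum, against 5402, 5490 and 5892 in E7 SF3 cultures. The groups did not overlap, with 0.58 ± 0.07 (adjusted p = 6.8e-05) at E14 and 0.37 ± 0.09 (adjusted p = 0.0038) at E7. MYL12A gave 10100, 8544 and 9986 in E14 cultures with serum, against 9013, 8557 and 8948 in E14 SF3 cultures, and 8944, 8880 and 8819 in E7 cultures with serum, against 8269, 10290 and 9745 in E7 SF3 cultures. Its arrays overlapped at both ages (0.11 ± 0.07, adjusted p = 0.28, at E14 and -0.08 ± 0.08, adjusted p = 0.44, at E7). MYL6 rose at E14 by 0.44 ± 0.10 (adjusted p = 0.0055) and gave 0.12 ± 0.14 (adjusted p = 0.53) at E7. MYH9 gave 0.06 ± 0.13 (adjusted p = 0.77) at E14 and rose at E7 by 0.40 ± 0.12 (adjusted p = 0.015), a call lost without any one of SF3 replicates 1 or 3 or SF3 with serum replicate 3 (adjusted p = 0.054 to 0.062). The mean of the MYH9 probe sets at E7 gave -0.88 (adjusted p = 0.07), of the opposite sign. MYH10 gave -0.14 ± 0.07 (adjusted p = 0.15) and -0.03 ± 0.07 (adjusted p = 0.78). The cardiac light chain MYL2, of the striated muscle group, was lower at E7 by 0.71 ± 0.27 (adjusted p = 0.05) with overlapping arrays, a call lost without any one of SF3 replicates 2 or 3, SF3 with serum replicates 1 or 2, rcSF3 with serum replicate 3 or rcSF3 replicates 1, 2 or 3 (adjusted p = 0.057 to 0.19) and in the fit on means of probe sets (adjusted p = 0.061).

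Markers of other cells moved with serum beside myosin II and the tubulins. Of 3 smooth muscle and myofibroblast markers tested, TAGLN and ACTG2 were higher with serum at both ages, and the summed signal of the 6 measured was 2300 to 2430 in E14 cultures with serum, against 961 to 1180 in E14 SF3 cultures. In E7 cultures it was 2520 to 3030 with serum, against 702 to 1280 in SF3. MYH11, the smooth muscle heavy chain, lay under 100 on all 24 arrays, with its highest group mean at 56.6. Of 7 fibroblast markers tested, 4 were higher with serum at each age, with summed signals of 13100 to 13400 in E14 cultures with serum, against 5640 to 7380 in E14 SF3 cultures, and of 12100 to 20100 in E7 cultures with serum, against 5650 to 9250 in E7 SF3 cultures. Blood marker sums were 1650 to 2170 with serum at E14, against 3030 to 3810 in SF3, and 2860 to 3730 at E7, against 5900 to 7360. Glial marker sums were 40800 to 45100 with serum at E14, against 37900 to 41800 in SF3, and 37900 to 39400 at E7, against 34600 to 35100. The log2 ratio of the 3' to the 5' actin control probe sets, a sign of RNA quality, was 0.40 ± 0.07 in E14 cultures with serum, against 0.75 ± 0.03 in E14 SF3 cultures (SD, n = 3 each), and 0.37 ± 0.06 in E7 cultures with serum, against 0.75 ± 0.12 in E7 SF3 cultures. For the GAPDH control probe sets this ratio was -0.13 ± 0.04 with serum at E14, against -0.13 ± 0.01 in SF3. At E7 it was -0.09 ± 0.03 with serum, against -0.14 ± 0.02 in SF3. The part of these markers and ratios in the serum results was not tested. The labels do not say whether cultures with serum were prepared apart from those without. Such a difference could not be told apart from serum.

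Of 16 unconventional myosins tested with serum, 1 was higher and 3 lower at E14 and 4 higher and 2 lower at E7, so that 25% and 37.5% were called, beside 24.3% and 38.8% of all probe sets. MYO1D, a class I myosin, gave 235, 163 and 199.6 in E14 cultures with serum, against 83.3, 70.1 and 157 in E14 SF3 cultures, and 192, 222 and 208 in E7 cultures with serum, against 104, 141 and 70.48 in E7 SF3 cultures. It was higher on every serum array, from a level near the filter, by 1.02 ± 0.31 (adjusted p = 0.026) at E14 and 1.03 ± 0.28 (adjusted p = 0.0096) at E7. With signals under 100 raised to 100 these were 0.76 and 0.86, and the E14 call was lost without any one of SF3 replicates 1 or 2 or SF3 with serum replicates 1 or 3 (adjusted p = 0.066 to 0.11). MYO1E, a class I myosin of endocytosis, rose at E7 by 0.53 ± 0.16 (adjusted p = 0.016), a call lost without SF3 replicate 3 (adjusted p = 0.083). MYO10 gave 0.22 ± 0.15 (adjusted p = 0.3) at E14. At E7 it rose by 0.62 ± 0.14 (adjusted p = 0.0036), while another of its probe sets fell by 1.24 and the mean of them gave 0.11 (adjusted p = 0.73).

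MYO6 gave 333, 261 and 330.2 in E7 cultures with serum, against 572, 604 and 469 in E7 SF3 cultures. No array overlapped (-0.83 ± 0.16, adjusted p = 0.00078), and a second probe set fell by 0.61 (adjusted p = 0.0044). At E14 MYO6 gave -0.38 ± 0.16 (adjusted p = 0.1). MYO3B fell with serum at E14 by 1.22 ± 0.28 (adjusted p = 0.0054), with 127, 169.9 and 228 in E14 cultures with serum, against 439, 352 and 403 in E14 SF3 cultures. At E7 it fell by 0.63 ± 0.24 (adjusted p = 0.046), a call lost without any one of SF3 replicates 1, 2 or 3, SF3 with serum replicates 2 or 3, rcSF3 with serum replicate 1 or rcSF3 replicates 1, 2 or 3 (adjusted p = 0.053 to 0.17). MYO1H fell at E14 by 0.79 ± 0.21 (adjusted p = 0.013), a call lost without either SF3 replicate 3 or SF3 with serum replicate 3 (adjusted p = 0.051 to 0.055), and both other probe sets of MYO1H fell there, by 1.04 and 1.02.

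MYO3A went opposite ways with serum at the 2 ages. It gave 2864, 2945 and 3070 in E14 cultures with serum, against 4741, 3725 and 3732 in E14 SF3 cultures, and 3519, 4361 and 3626 in E7 cultures with serum, against 3179, 2434 and 2812 in E7 SF3 cultures. All serum arrays were lower at E14 and higher at E7 (-0.45 ± 0.09, adjusted p = 0.0028, at E14 and 0.45 ± 0.10, adjusted p = 0.0024, at E7). The difference between the responses, E14 minus E7, was -0.90 ± 0.14 (SE; adjusted p = 0.00062). A second probe set of MYO3A rose at E7 by 0.80 (adjusted p = 1.6e-05) and gave 0.28 at E14 (adjusted p = 0.13), so the fall at E14 was read by 1 probe set only. The mean of its probe sets gave 0.13 (adjusted p = 0.62) at E14, of the opposite sign, and -0.75 (adjusted p = 0.091) for the difference. MYO7A gave 0.12 ± 0.11 (adjusted p = 0.46) at E14 and -0.20 ± 0.10 (adjusted p = 0.14) at E7, and MYO5A gave -0.01 ± 0.11 (adjusted p = 0.96) and -0.07 ± 0.12 (adjusted p = 0.71).

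Of the 11 dynein subunits tested with serum, 0 were called at E14 by limma, where 2 had an unadjusted p under 0.05, and 3 were called at E7. Their shares were 0% and 27.3%, beside 24.3% and 38.8% of all probe sets. DYNC2H1, the dynein heavy chain of cilia, gave 108, 88.5 and 119 in E7 cultures with serum, against 195, 218 and 118 in E7 SF3 cultures. The third SF3 array overlapped the serum arrays (-0.71 ± 0.23, adjusted p = 0.026), and the call was lost without any one of SF3 replicates 1 or 2 or SF3 with serum replicate 2 (adjusted p = 0.088 to 0.12). DYNLL2 was lower by 0.27 ± 0.09 (adjusted p = 0.027), a call lost without any one of SF3 replicate 1 or SF3 with serum replicates 1 or 3 (adjusted p = 0.062 to 0.13). DYNLT3, a Tctex light chain, was higher by 0.24 ± 0.09 (adjusted p = 0.041), a call lost without any one of SF3 replicates 1, 2 or 3, SF3 with serum replicates 1 or 3 or rcSF3 with serum replicate 2 (adjusted p = 0.053 to 0.15). The mean of the probe sets gave -0.20 (adjusted p = 0.055) for DYNLL2 and 0.10 (adjusted p = 0.52) for DYNLT3. DYNC1H1 gave -0.16 ± 0.11 (adjusted p = 0.3) at E14 and -0.05 ± 0.12 (adjusted p = 0.78) at E7.

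KIF16B, KIF1B, KIF2A, KIF3A, KIF6, MYL9, MYO1D, MYO3A, MYO3B and TUBA1A were called with serum at both ages, which is 58.8% of the 17 members called at E14 and 45.5% of the 22 called at E7. Of these, 9 moved in the same direction, with MYO3A the exception. Over all probe sets tested the shares were 67.1% and 42%. The comparisons of rcSF3 and of serum with SF3 use the same SF3 arrays, so their values are given side by side and no overlap between them is drawn.

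In the presence of serum, rcSF3 still set apart KIF5C, DYNLRB2 and TUBB6 in E7 cultures. KIF5C gave 117, 185 and 177 in E7 cultures in rcSF3 with serum, against 812, 693 and 735 in SF3 with serum. The arrays were far apart (-2.25 ± 0.19, adjusted p = 3e-06), and its other probe sets gave -1.58 (adjusted p = 0.0028) and -2.57 (adjusted p = 9.2e-06). DYNLRB2 gave 523, 429.9 and 462 in rcSF3 with serum, against 205, 253 and 172 in SF3 with serum (1.18 ± 0.17, adjusted p = 2e-04). TUBB6 gave 15960, 14580 and 14700 in rcSF3 with serum, against 9824, 9518 and 10070 in SF3 with serum (0.62 ± 0.08, adjusted p = 9.8e-05). Both were higher on all 3 arrays with rcSF3. KIF5B rose by 0.42 ± 0.10 (adjusted p = 0.0071), and its other probe sets by 0.49 (adjusted p = 0.023) and 0.62 (adjusted p = 0.025). Markers of other cells moved in this comparison too. Of 5 photoreceptor markers tested GNAT2 was lower, and the summed signal of the 9 measured was 1080 to 1440 in E7 cultures in rcSF3 with serum, against 2870 to 3650 in SF3 with serum. Of 7 fibroblast markers tested 3 were lower and 0 higher (COL1A1, COL3A1 and POSTN), with summed signals of 5820 to 8300 in rcSF3 with serum, against 12100 to 20100 in SF3 with serum. Of 3 neuronal markers tested ELAVL4 was lower, with summed signals of 1770 to 2410 in rcSF3 with serum, against 1980 to 2700 in SF3 with serum. Their part in these results was not tested.

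Further E7 calls in rcSF3 with serum were each lost without some single array. KIF1A fell by 0.94 ± 0.28 (adjusted p = 0.026), a call lost without any one of SF3 with serum replicates 1 or 2 or rcSF3 with serum replicates 1 or 2 (adjusted p = 0.059 to 0.085). MYO1C fell by 0.82 ± 0.21 (adjusted p = 0.012), a call lost without rcSF3 with serum replicate 1 (adjusted p = 0.064), and MYL6 by 0.56 ± 0.14 (adjusted p = 0.011), a call lost without rcSF3 with serum replicate 1 (adjusted p = 0.052). MYO3AL fell by 0.53 ± 0.15 (adjusted p = 0.023), a call lost without any one of SF3 with serum replicates 1, 2 or 3 or rcSF3 with serum replicates 1 or 2 (adjusted p = 0.052 to 0.075). These 4 were also lower in E7 cultures in rcSF3 without serum. KIF9 rose by 0.52 ± 0.14 (adjusted p = 0.018), a call lost without either SF3 with serum replicate 3 or rcSF3 with serum replicate 1 (adjusted p = 0.078 to 0.093), and MYO6 by 0.51 ± 0.16 (adjusted p = 0.032), a call lost without any one of SF3 with serum replicates 2 or 3 or rcSF3 with serum replicates 1 or 2 (adjusted p = 0.051 to 0.16). The ciliary heavy chain DYNC2H1 rose by 0.74 ± 0.23 (adjusted p = 0.036), a call lost without any one of SF3 with serum replicates 1, 2 or 3 or rcSF3 with serum replicates 1, 2 or 3 (adjusted p = 0.053 to 0.12). The intermediate chain DYNC1I2 rose by 0.35 ± 0.09 (adjusted p = 0.013), a call lost without either SF3 with serum replicate 2 or rcSF3 with serum replicate 1 (adjusted p = 0.051 to 0.058), and the mean of its probe sets gave 0.15 (adjusted p = 0.76). KIF21A fell by 0.21 ± 0.07 (adjusted p = 0.046), a call lost without any one of SF3 replicates 2 or 3, SF3 with serum replicates 1 or 3, rcSF3 with serum replicates 1, 2 or 3 or rcSF3 replicate 1 (adjusted p = 0.05 to 0.15). MYO3A rose by 0.29 ± 0.10 (adjusted p = 0.047), a call lost without any one of SF3 replicate 3, SF3 with serum replicates 1 or 3, rcSF3 with serum replicates 1, 2 or 3 or rcSF3 replicates 1, 2 or 3 (adjusted p = 0.053 to 0.16) and with the replicate number as a block over all 4 media (adjusted p = 0.052). The second probe set of MYO3A gave -0.50 there, and the mean of its probe sets gave -0.072 (adjusted p = 0.8). The count of 14 calls was 4 without rcSF3 with serum replicate 1, 8 without SF3 with serum replicate 3, and 9 without SF3 with serum replicate 2 or rcSF3 with serum replicate 2. Of all probe sets, 12.4%, 14%, 16.1% and 14.4% were called without these arrays, in that order.

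In E14 cultures with serum, rcSF3 changed DYNLT3 and MYL6. DYNLT3 gave 2147, 1757 and 1868 in rcSF3 with serum, against 2697, 2690 and 2616 in SF3 with serum, with no overlap (-0.48 ± 0.09, adjusted p = 0.011), and the call was lost without rcSF3 with serum replicate 2 (adjusted p = 0.069). The mean of its probe sets gave -0.31 (adjusted p = 0.19). MYL6 gave 603, 678 and 601 in rcSF3 with serum, against 853, 870 and 855 in SF3 with serum, again with no overlap (-0.46 ± 0.10, adjusted p = 0.026), and was lost without any one of SF3 with serum replicates 1, 2 or 3 or rcSF3 with serum replicates 1, 2 or 3 (adjusted p = 0.053 to 0.093). With same-numbered arrays as a block 5 members were called, beside 7.98% of all probe sets. Added were DYNLRB2 (0.43 ± 0.12, adjusted p = 0.048), TUBA1A (-0.30 ± 0.06, adjusted p = 0.0096) and TUBB4B (-0.29 ± 0.05, adjusted p = 0.0081). Without the block KIF5C gave -0.40 ± 0.20 (adjusted p = 0.31), TUBB6 -0.01 ± 0.09 (adjusted p = 0.96) and MYO7A -0.03 ± 0.11 (adjusted p = 0.91). Of the fibroblast markers POSTN was lower here, with summed signals of 5770 to 12200 in rcSF3 with serum, against 13100 to 13400 in SF3 with serum, and the photoreceptor sum was 1010 to 1460 in rcSF3 with serum, against 1480 to 1860 in SF3 with serum. Their part was not tested.

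The response to rcSF3 with serum minus that without it was tested as an interaction, which called 2 members at E14, 1 higher and 1 lower, beside 0.647% of all probe sets (0.235% higher, 0.412% lower), and 1 at E7, lower, beside 2.21% of all probe sets (0.893% higher, 1.32% lower). At E14, MYO19 gave 0.92 ± 0.17 (adjusted p = 0.032) and TUBB2B gave -1.04 ± 0.21 (adjusted p = 0.041). TUBB2B had 884, 831 and 758 in E14 rcSF3 with serum, against 999.8, 933 and 1079 in E14 SF3 with serum, so it lay lower with rcSF3 where serum was present and higher where it was absent. The lower level of TUBB2B in the presence of serum was itself not called. MYO19 had 691, 674 and 655 in E14 rcSF3 with serum, against 723, 638 and 566 in E14 SF3 with serum, where the groups overlapped. TUBA1A was added at E14 with same-numbered arrays as a block (-0.52 ± 0.08, adjusted p = 0.0071). At E7, MYO3A gave -0.61 ± 0.14 (adjusted p = 0.035), and its second probe set gave -1.44 (adjusted p = 8.7e-05), while the mean of its probe sets gave -0.86 (adjusted p = 0.081). In the fit on such means TUBB2B had an adjusted p of 0.053. The calls were lost without any one of SF3 replicates 2 or 3, SF3 with serum replicates 2 or 3, rcSF3 with serum replicates 1, 2 or 3 or rcSF3 replicates 1 or 2 (adjusted p = 0.053 to 0.078) for MYO19, without any one of SF3 replicates 2 or 3, SF3 with serum replicates 1, 2 or 3, rcSF3 with serum replicates 1, 2 or 3 or rcSF3 replicates 1 or 3 (adjusted p = 0.051 to 0.11) for TUBB2B and without any one of SF3 replicates 2 or 3, SF3 with serum replicates 2 or 3, rcSF3 with serum replicates 1, 2 or 3 or rcSF3 replicates 1, 2 or 3 (adjusted p = 0.051 to 0.09) for MYO3A.

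Between ages in SF3, MYO1H had the largest log2 difference of the members tested. MYO1H gave 625, 534 and 711 in E14 SF3 cultures, against 184, 106 and 181 in E7 SF3 cultures. The groups were far apart (2.03 ± 0.25, adjusted p = 9.3e-07), and its other probe sets gave 3.16 (adjusted p = 1.9e-09) and 2.32 (adjusted p = 1.1e-06). TUBB6 gave 19740, 17990 and 21500 in E14 SF3 cultures, against 9357, 10700 and 8577 in E7 SF3 cultures, without overlap (1.05 ± 0.09, adjusted p = 6e-09). DYNLRB2 gave 467, 371 and 513 in E14 SF3 cultures, against 206, 175 and 184 in E7 SF3 cultures, and KIF9 gave 736, 605 and 865 in E14 SF3 cultures, against 449.8, 342 and 321 in E7 SF3 cultures. Both were higher on all 3 E14 arrays, by 1.25 ± 0.19 (adjusted p = 1.8e-05) for DYNLRB2 and by 0.99 ± 0.14 (adjusted p = 7.7e-06) for KIF9.

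MYO3A, MYO3B and MYO10, myosins of protrusions, were higher in E14 than in E7 SF3 cultures. MYO3B gave 439, 352 and 403 in E14 SF3 cultures, against 164, 121 and 118 in E7 SF3 cultures, and MYO10 gave 484, 426 and 613 in E14 SF3 cultures, against 294, 258 and 234 in E7 SF3 cultures. No arrays overlapped, with 1.58 ± 0.27 (adjusted p = 6.2e-05) for MYO3B and 0.94 ± 0.14 (adjusted p = 1.9e-05) for MYO10. MYO3A rose by 0.53 ± 0.10 (adjusted p = 0.00017) and MYO19 by 0.49 ± 0.13 (adjusted p = 0.0048). MYH9 rose by 0.43 ± 0.13 (adjusted p = 0.012), a call lost without either E7 SF3 replicate 3 or E14 SF3 replicate 2 (adjusted p = 0.054 to 0.055), and the mean of its probe sets gave -0.045 (adjusted p = 0.93). Of 11 dynein subunits, 4 were higher and 0 lower, beside 15.8% higher and 20.6% lower of all probe sets: DYNLRB2, DYNLT3 (0.61 ± 0.08, adjusted p = 5.4e-06), DYNC1LI2 (0.26 ± 0.09, adjusted p = 0.021), whose call was lost without either E7 SF3 replicate 1 or E14 SF3 replicate 1 (adjusted p = 0.07 to 0.16) and with the mean of its probe sets, at 0.10 (adjusted p = 0.43), and DYNC1I2 (0.24 ± 0.09, adjusted p = 0.045), whose call was lost without any one of E7 SF3 replicates 1 or 2, E7 rcSF3 with serum replicate 1, E14 SF3 replicates 1, 2 or 3 or E14 rcSF3 with serum replicates 2 or 3 (adjusted p = 0.05 to 0.18).

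Of 16 transport kinesins, 1 was higher and 5 lower in E14 SF3 cultures, beside 15.8% higher and 20.6% lower of all probe sets, a gap that was not tested. KIF5C (-1.19 ± 0.20, adjusted p = 7e-05), KIF1A (-0.98 ± 0.27, adjusted p = 0.0066) and KIF21A (-0.53 ± 0.07, adjusted p = 2.8e-06) were lower in E14 SF3 cultures, as were KIF7, the Hedgehog regulator of the cilium tip (-0.64 ± 0.15, adjusted p = 0.0022), and KIF13A, which moves recycling endosomes and melanosome cargo (-0.37 ± 0.14, adjusted p = 0.041). The call of KIF13A was lost without any one of E7 SF3 replicates 1, 2 or 3 or E14 SF3 replicates 1 or 2 (adjusted p = 0.071 to 0.14), and that of KIF7 with the mean of its probe sets, at -0.37 (adjusted p = 0.064). Other tested probe sets of KIF5C fell by 1.24 (adjusted p = 0.0052) and 0.99 (adjusted p = 0.0063), and one of KIF1A by 1.10 (adjusted p = 0.0067). MYO1C fell by 0.76 ± 0.21 (adjusted p = 0.0069), with -0.51 (adjusted p = 0.068) for the mean of its probe sets, MYL6 by 0.37 ± 0.12 (adjusted p = 0.018), a call lost without E7 SF3 replicate 2 (adjusted p = 0.072), and MYL2 by 0.89 ± 0.30 (adjusted p = 0.023), a call lost without any one of E7 SF3 replicates 2 or 3 or E14 SF3 replicate 3 (adjusted p = 0.055 to 0.11). KIF1BP fell by 0.27 ± 0.08 (adjusted p = 0.0086). MYO7A gave 1083, 895 and 1019 in E14 SF3 cultures, against 1222, 1385 and 1245 in E7 SF3 cultures, a small step without overlap (-0.36 ± 0.10, adjusted p = 0.0077) whose call was lost without E14 SF3 replicate 2 (adjusted p = 0.051). Of 14 cell division markers tested, 6 were lower and 0 higher at E14, and the photoreceptor and neuronal markers CNGA3 and ELAVL4 were lower beside the kinesins, while GUCA1A was higher. Their part was not tested.

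Averaged over the 4 media, E14 differed from E7 in 32 members, 19 higher and 13 lower, beside 53.4% of all probe sets tested (22.6% higher, 30.8% lower). Among these were 6 dynein subunits, all higher, and 9 transport kinesins, 2 higher and 7 lower. The median log2 difference was 0.25 over the 11 dynein subunits tested and -0.11 over the 16 transport kinesins, beside -0.04 over all probe sets tested. The 6 largest increases called were those of MYO1H, MYO3B, DYNLRB2, TUBB6, KIF9 and KIF15. The 6 largest decreases were those of MYL2, KIF5C, MYO1C, KIF25, KIF1A and KIF7. With the mean of its probe sets MYO1C lost its call, at -0.20 (adjusted p = 0.12). MYO5A, called in no comparison of media, was higher at E14 by 0.30 ± 0.05 (adjusted p = 4.9e-05) in this average. MYH10 was lower by 0.11 ± 0.03 (adjusted p = 0.0035). MYO3A, higher at E14 in SF3, was lower at E14 in this average by 0.21 ± 0.05 (adjusted p = 0.00091).

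The E7 change with rcSF3 and the change with age rest on the same E7 SF3 arrays. The groups compared for rcSF3 in the presence of serum at E7 share no array with the groups of the age comparison in SF3. The spread was taken over all E7 arrays for this E7 comparison and over all arrays of both ages for age. The calls are therefore not fully independent. Of the 14 members called in that E7 comparison, 10 were called with age, all 10 in the same direction, which is 71.4% of the 14 and 45.5% of the 22 called with age. They were DYNC1I2, DYNLRB2, KIF1A, KIF21A, KIF5C, KIF9, MYL6, MYO1C, MYO3A and TUBB6. Over all probe sets tested these shares were 52.4% and 31%, and 1808 of 2109 shared calls had the same direction. The calls in rcSF3 with serum of DYNC1I2, KIF1A, KIF21A, KIF9, MYL6, MYO1C and MYO3A were each lost without some single array. The count of 14 was 4 without E7 rcSF3 with serum replicate 1, where 12.4% of all probe sets were called. For MYO3A the mean of its probe sets gave -0.072 in rcSF3 with serum (adjusted p = 0.8), of the opposite sign. Averaged over the media MYO3A was lower at E14.

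How the ages differed in their responses was tested directly. For rcSF3, 2 members differed, beside 5.56% of all probe sets (2.42% higher, 3.14% lower): MYO3A by -1.02 ± 0.14 (adjusted p = 7.7e-05) and KIF21A by 0.42 ± 0.10 (adjusted p = 0.012), as the response at E14 minus that at E7. With same-numbered arrays as a block there were 5, beside 10.3% of all probe sets. Added were DYNC1H1 (0.34 ± 0.10, adjusted p = 0.046), MYL6 (0.55 ± 0.16, adjusted p = 0.034) and TUBB4B (0.27 ± 0.08, adjusted p = 0.044). For serum, 4 members differed, beside 3.97% of all probe sets (1.75% higher, 2.22% lower): MYO1H by -1.29 ± 0.35 (adjusted p = 0.036), MYO3A as given above, KIF5B by 0.55 ± 0.15 (adjusted p = 0.04) and KIF21A by 0.39 ± 0.10 (adjusted p = 0.028). KIF21A gave 3784, 3943 and 3709 in E14 rcSF3 cultures, against 3408, 3831 and 3312 in E14 SF3 cultures, and 4150, 3847 and 4404 in E7 rcSF3 cultures, against 4850, 5081 and 5302 in E7 SF3 cultures. Its arrays overlapped at E14 and lay apart at E7. With the mean of its probe sets the rcSF3 difference of MYO3A was -0.61 (adjusted p = 0.16), and the serum differences were -1.13 (adjusted p = 0.14) for MYO1H, 0.39 (adjusted p = 0.21) for KIF5B and 0.25 (adjusted p = 0.21) for KIF21A. For serum, the call of MYO1H was lost without any one of E7 SF3 replicate 2, E7 SF3 with serum replicates 1 or 2, E14 SF3 replicates 1 or 3 or E14 SF3 with serum replicates 2 or 3 (adjusted p = 0.067 to 0.11), that of KIF5B without any one of E7 SF3 replicates 2 or 3, E7 SF3 with serum replicates 1, 2 or 3, E7 rcSF3 with serum replicate 2, E14 SF3 replicates 1 or 2 or E14 SF3 with serum replicates 2 or 3 (adjusted p = 0.051 to 0.11) and that of KIF21A without any one of E7 SF3 replicates 2 or 3, E7 SF3 with serum replicate 2, E14 SF3 replicates 1 or 3 or E14 SF3 with serum replicates 1 or 2 (adjusted p = 0.054 to 0.079).

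The 37 members under the filter were described without a test. They held 11 of 13 striated muscle myosins, 8 of 13 mitotic kinesins, 7 of 23 unconventional myosins, 5 of 21 transport kinesins, 4 of 12 tubulins, 1 of 12 dynein subunits and MYH11. TUBB3, the neuronal β-tubulin, had group means from 73.8 to 149, with the highest in E7 cultures in SF3 with serum. MYL4, an atrial and embryonic muscle light chain, had group means from 12.8 to 124, also highest there. The brush border myosin MYO1A lay between 4.47 and 30.5, and the recycling motor MYO5B between 12.9 and 31.8, both at levels at which small differences are poorly measured. DYNLL1 and TUBA1B had no probe set with a single symbol of that name and were not analysed here.

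Genes that work with the motors were counted as lists, to be read against the shares of all probe sets called, which were 9.84% for rcSF3 at E14 and 27.3% at E7, and 24.3% for serum at E14 and 38.8% at E7. The lists were not tested against these shares. Of 18 tested genes of dynactin and the dynein adaptors, 2 were higher and 1 lower in rcSF3 at E14, and 4 higher and 4 lower at E7. With serum, 5 were higher and 6 lower at E14, and 6 higher and 5 lower at E7. BICD2, which activates dynein on vesicles, fell with serum by 0.65 ± 0.09 at E14 (adjusted p = 0.00013) and by 1.05 ± 0.10 at E7 (adjusted p = 3.6e-06), and DCTN2, the dynamitin subunit of dynactin, rose by 0.94 ± 0.13 (adjusted p = 0.00015) and 0.90 ± 0.15 (adjusted p = 0.00034). NDEL1, a dynein regulator, fell by 0.77 ± 0.11 in E7 rcSF3 cultures (adjusted p = 0.00015) and CAPZA2, a capping subunit of dynactin's short filament, rose by 0.63 ± 0.10 (adjusted p = 0.00027).

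Of 11 tested myosin adaptors of melanosomes and microvilli, 0 were higher and 2 lower with serum at E14, and 1 higher and 3 lower at E7. RAB27A, which links melanosomes to their myosin, fell with serum by 0.63 ± 0.09 at E14 (adjusted p = 0.00015) and 0.81 ± 0.08 at E7 (adjusted p = 4.3e-06). DAB2, a cargo adaptor of MYO6, fell by 1.53 ± 0.21 (adjusted p = 0.00013) and 1.52 ± 0.21 (adjusted p = 7.3e-05). In rcSF3, 1 was higher and 0 lower at E14, and 2 higher and 0 lower at E7, with the MYO6 partner TOM1 at 0.58 ± 0.10 (adjusted p = 0.00037). Of 19 tested myosin II regulators, 0 were higher and 2 lower in rcSF3 at E14, and 2 higher and 3 lower at E7, where the kinase of the regulatory light chain, MYLK, rose by 1.07 ± 0.16 (adjusted p = 0.00013) and the tropomyosin TPM2 fell by 1.00 ± 0.12 (adjusted p = 2.9e-05). With serum, 3 were higher and 5 lower at E14, and 3 higher and 2 lower at E7, with the calponin CNN2 up by 1.69 ± 0.22 (adjusted p = 0.00011) and 1.58 ± 0.19 (adjusted p = 2.2e-05).

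Among 24 tested microtubule associated proteins, 2 were higher and 2 lower in rcSF3 at E14, and 4 higher and 2 lower at E7. With serum, 3 were higher and 4 lower at E14, and 5 higher and 6 lower at E7. With serum at E7, DCX, a microtubule stabilizer of young neurons, rose by 1.93 ± 0.47 (adjusted p = 0.0044) and CLIP2, which binds plus ends, by 1.09 ± 0.14 (adjusted p = 3e-05). Of 20 tested genes of tubulin folding and modification, 4 were higher and 2 lower with serum at E14 and 4 higher and 5 lower at E7, with the folding cofactor TBCB up by 1.33 ± 0.20 (adjusted p = 0.00035) and 0.61 ± 0.16 (adjusted p = 0.0067). In rcSF3, 1 was higher and 1 lower at E14, and 3 higher and 3 lower at E7, with the cofactor TBCC up by 1.16 ± 0.17 at E7 (adjusted p = 0.00017). Of 8 tested kinesin cargo adaptors, 0 changed in rcSF3 at E14 and 1 rose and 2 fell at E7, and with serum 1 rose at E14, TRAK1, which ties kinesin-1 to mitochondria (0.67 ± 0.15, adjusted p = 0.004).

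Different probe sets of a gene did not always read alike. Of the tested members, 36 had another tested probe set, and in 3 cases 2 probe sets of a gene were called in opposite directions. In E7 cultures with serum, another probe set of KIF1B gave -0.60 and another of MYO10 gave -1.24, against 0.27 and 0.62 for the probe sets used. In E7 cultures in rcSF3 with serum, the second probe set of MYO3A gave -0.50, against 0.29 for the one used. Probe sets of one gene can read different transcripts, and which of them a difference belongs to was not tested.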

How the data were processed

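RNA of 24 RPE cultures was hybridised to Affymetrix chicken genome arrays, 1 array per sample and 3 per group. The deposited values are signal intensities on a linear scale, which the authors made with GeneChip Operating Software and scaled to a trimmed mean of about 500.1. After the 96 control probe sets were left out, signals were taken to log2 with no further normalization. Of the probe sets, 27168 carried 1 gene symbol in the platform annotation, 177 several and 11094 none. A probe set was tested where its mean log2 signal corresponded to at least 100. Of the tested members, 14 were read by a probe set whose name ends in s_at or x_at, whose probes more than 1 transcript may share. Each age was fitted with limma 3.58.1 (R 4.3.3; lmFit and eBayes with an intensity trend), comparisons between ages with all 24 arrays, and p values were adjusted over all probe sets tested. Values are given as log2 difference ± SE. Calls are adjusted p values under 0.05. The code was tested on simulated data.

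Per comparison, up to 6 members with the largest increases and 6 with the largest decreases among those called whose arrays did not overlap were named, with a roster of well known members. Other called members were named after their values were seen, among them KIF4B, DYNC2H1 and MYL2, whose arrays overlapped with serum, and uncalled values were given beside a call of the same gene or family. Pathway genes were named by the 2 largest called changes of a list. Members and lists were chosen with earlier results of these data known. The methods describe the 3 arrays of a group as biological repeats from independent experiments, so p values measure the spread between such repeats. Same-numbered arrays of rcSF3 and SF3 deviated together at both ages (correlations of deviations 0.145 to 0.218 at E14 and 0.151 to 0.194 at E7), as did those of the groups with serum at E14 (0.131 to 0.257) but less at E7 (0.04 to 0.142), and arrays numbered alike within a serum state were also fitted as a block, which was chosen after the data were seen. Those of SF3 and SF3 with serum did not deviate together (-0.048 to 0.002 at E14 and -0.087 to 0.011 at E7). Alternatives were leaving out each array, quantile normalization, no filter and a stricter one of 200, signals under 100 raised to 100, 1 model of all 24 arrays, the mean of all probe sets of a gene, other moderation and the replicate number as a block. Figures were drawn with matplotlib 3.10.9.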

Additional observations from a re-analysis of the deposited data

Results flagged for a closer look

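Some members answered a medium differently at the 2 ages, by a test of the difference between the responses. MYO3A did so for both media, with a response at E14 minus that at E7 of -1.02 ± 0.14 for rcSF3 (SE; adjusted p = 7.7e-05) and -0.90 ± 0.14 for serum (adjusted p = 0.00062). Its second probe set gave -0.91 for rcSF3 (adjusted p = 0.0014) and -0.52 for serum (adjusted p = 0.083). KIF21A differed by 0.42 ± 0.10 for rcSF3 (adjusted p = 0.012) and by 0.39 ± 0.10 for serum (adjusted p = 0.028), where a second probe set gave 0.50 (adjusted p = 0.055) and 0.12 (adjusted p = 0.72). For serum, MYO1H differed by -1.29 ± 0.35 (adjusted p = 0.036) and KIF5B by 0.55 ± 0.15 (adjusted p = 0.04). The serum calls of MYO1H, KIF5B and KIF21A were each lost without some single arrays and with the mean of all probe sets, as given above. Both calls of MYO3A were also lost with the mean of its probe sets, at -0.61 (adjusted p = 0.16) for rcSF3 and -0.75 (adjusted p = 0.091) for serum.

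In E14 cultures the response to rcSF3 differed with and without serum for MYO19, by 0.92 ± 0.17 (adjusted p = 0.032), and for TUBB2B, by -1.04 ± 0.21 (adjusted p = 0.041). In E7 cultures it differed for MYO3A, by -0.61 ± 0.14 (adjusted p = 0.035). Leaving out 1 array at a time ended the call for 9 arrays for MYO19, and for 10 each for TUBB2B and MYO3A. All of these calls were also lost without a filter, with moderation without a trend and in the unmoderated analysis. With 3 arrays in each group, no single array was tested as standing apart.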

How the results depend on the processing

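Calls of members were recounted under each alternative. With the mean of all probe sets of a gene, which left 48 members tested, the counts were 5 at E14 and 12 at E7 for rcSF3, 8 and 12 for serum, 1 and 9 for rcSF3 with serum, 0 and 0 for the interaction, 13 and 25 over the 4 media, 14 for age in SF3, 19 for age averaged, 1 for the age difference of the rcSF3 response and 0 for that of the serum response. The shares over everything tested in that fit were 9.8% and 25% for rcSF3, and 22.2% and 33.8% for serum. They were 1.87% and 18% for rcSF3 with serum, 0.328% and 1.37% for the interaction, and 37.8% and 55.6% over the 4 media. For age they were 33.8% in SF3 and 50.2% averaged, and for the age differences 5.1% (rcSF3) and 2.88% (serum). Without a filter, with 101 tested, they were 8 for rcSF3 with serum at E7, 0 for the interaction at both ages and 1 for the difference in response to serum. Of all probe sets, 8.47%, 0.109% (E14), 0.648% (E7) and 1.23% were then called. The unmoderated analysis of variance gave 5 for rcSF3 at E14 and 0 for the interaction at both ages, beside 6.26%, 0% (E14) and 0.684% (E7) of all probe sets. Moderation without a trend gave 6 for rcSF3 at E14, 0 for the interaction at both ages and 2 for the difference in response to serum. The shares of all probe sets there were 7.31%, 0.0107% (E14), 0.925% (E7) and 2.68%. Quantile normalization gave 0 for the interaction at E7, beside 2.37% of all probe sets. The replicate number as a block moved no count by over 1.5 times, but lost DYNC1I2 for rcSF3 at E14 (adjusted p = 0.052), KIF1B for serum at E14 (adjusted p = 0.059) and MYO3A for rcSF3 with serum at E7 (adjusted p = 0.052). The block within each serum state, chosen after the data were seen, gave 5 for rcSF3 with serum at E14 (7.98% of all probe sets). It gave 5 for the difference in response to rcSF3 (10.3% of all probe sets). This block lost no call and gained those named in the report and, for rcSF3 with serum at E7, KIF13B (0.66, adjusted p = 0.034), MYL2 (-0.74, adjusted p = 0.03) and TUBB4B (-0.21, adjusted p = 0.036).

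Leaving out 1 array at a time gave 5 to 11 calls for rcSF3 at E14 (5 without E14 SF3 replicate 2 and 6 without E14 rcSF3 replicate 1) and 17 to 21 at E7, 11 to 17 for serum at E14 (11 without E14 SF3 with serum replicate 3) and 15 to 22 at E7, 0 to 2 for rcSF3 with serum at E14 and 4 to 15 at E7, 0 to 2 for the interaction at E14 and 0 to 1 at E7, 26 to 32 over the 4 media at E14 and 41 to 44 at E7, 18 to 23 for age in SF3, 29 to 33 for age averaged, 2 to 3 for the difference in response to rcSF3 and 1 to 4 in that to serum. The share of all probe sets fell too. For rcSF3 at E14 it was 5.57% without E14 SF3 replicate 2 and 6.42% without E14 rcSF3 replicate 1. For serum at E14 it was 19.2% without E14 SF3 with serum replicate 3.

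A setting in which a gene fell under the filter was not counted against its call. Of 127 calls followed, 61 kept their call and direction in every setting that tested the gene and 9 turned direction, all 9 with the mean of all probe sets. These gave DYNC1I2 -0.20 for rcSF3 at E14, KIF1B -0.062 for rcSF3 and -0.46 for serum at E7, KIF16B 0.33, MYH9 -0.88 and TUBG1 -0.47 for serum at E7, MYO3A 0.13 for serum at E14 and -0.072 for rcSF3 with serum at E7, and MYH9 -0.045 for age in SF3. The cause was not tested. Of the 127, 52 lost their call in a setting other than leaving out an array. Quantile normalization ended the serum calls of DYNLL2, DYNLT3, KIF6, MYL2 and MYO3B at E7 (adjusted p = 0.055 to 0.16). It also ended the age calls in SF3 of DYNC1I2, KIF13A, MYL2 and MYL6 (adjusted p = 0.054 to 0.11) and the rcSF3 call of TUBB6 at E14 (adjusted p = 0.054). Raising signals under 100 to 100 ended the serum calls of KIF6 at E14 (adjusted p = 0.05) and MYO3B at E7 (adjusted p = 0.11). Probe sets near background and the number of arrays limit small changes.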
